A study of Homo sapiens with 12 samples.

Results

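The transforming growth factor beta (TGF-beta) pathway was examined through 10 genes that encode its ligands, receptors and SMAD proteins, in renal carcinoma cells with and without knockdown of NUF2. The genes were taken by symbol from the 58302 genes in the deposited tables, and all 10 were found: the ligands TGFB1 and TGFB2, the receptors TGFBR1 and TGFBR2, the receptor-regulated SMAD2 and SMAD3, the common SMAD4, the inhibitory SMAD6 and SMAD7, and the corepressor SKIL. Total RNA was sequenced from 769-P and ACHN, established lines that the labels describe as clear cell renal cell carcinoma, 48 h after transfection with siNUF2, a mixture of 2 siRNAs against NUF2, or with siControl. Each of the 4 groups held 3 libraries, and the values are FPKM (fragments per kilobase of exon, scaled to the mapped fragments of a library). NUF2 encodes a subunit of the kinetochore complex that binds spindle microtubules. The groups are limited as models in that each line is a single culture line, that 1 control siRNA was used, and that 769-P was grown in RPMI-1640 and ACHN in MEM, so line and medium cannot be told apart.

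TGF-beta ligands are secreted in a latent form and, once activated, bind a type II receptor (TGFBR2), which recruits and phosphorylates a type I receptor (TGFBR1). The type I receptor phosphorylates SMAD2 and SMAD3, which join SMAD4, enter the nucleus and regulate target genes. SMAD6, SMAD7 and SKIL restrain the signal, and SMAD7 and SKIL are themselves induced by it, so that they form a negative feedback. In kidney epithelium the pathway is best known for its part in fibrosis and in the shift of epithelial cells to a mesenchymal state.

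Between 29036926 and 38508234 reads per library could be recovered from the FPKM, and NUF2 fell to 20.1% of its siControl mean in 769-P and stood at 27.9% of it in ACHN. The libraries of ACHN differed widely among replicates of 1 group, and in both lines libraries with the same replicate number deviated together. Fits with the replicate number as a term (here called the replicate block) are therefore given beside the fits without it. PAX8, PAX2, KRT8 and KRT18, markers of renal epithelium, reached an FPKM of 0.5 in each of the 4 groups, and their summed FPKM was 202 to 247 in libraries of 769-P and 307 to 499 in those of ACHN. Of 3 endothelial and 3 leukocyte markers none reached an FPKM of 0.5, and the sums were at most 0.0877 and 0.401. In 769-P, PAX8 was lower in siNUF2 without the block (log2 fold change -0.44, adjusted p = 0.035 in limma) and with it, and with the block PAX2 (0.34), KRT8 (0.17) and KRT18 (0.26) were higher. In ACHN, KRT8 and KRT18 were higher with the block, by 0.61 and 0.60. Their part in the results was not tested. In bulk RNA, fewer cells of a kind and less RNA per cell cannot be told apart.

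SMAD3 was the most abundant of the 10 genes per kilobase of exon in each group, although in 769-P siNUF2 libraries its range overlapped that of TGFB1. The ligand TGFB2 had the largest ratio between the lines. In 769-P siControl libraries the mean FPKM fell from 63.1 for SMAD3 through 26.4 for TGFB1, 17.8 for SMAD7, 11.2 for TGFBR2, 8.83 for SMAD6, 8.13 for SKIL, 6.03 for SMAD4 and 2.82 for TGFBR1 to 1.87 for SMAD2, with TGFB2 near 0. Neighbours in this order had separate ranges over the 3 libraries, except SMAD6 and SKIL. In ACHN siControl libraries the order was SMAD3 at 81.6, TGFBR2 at 24.8, SMAD7 at 24.3, TGFB1 at 20.1, TGFB2 at 11.7, SKIL at 8.03, SMAD4 at 5.09, SMAD6 at 3.49, TGFBR1 at 2.76 and SMAD2 at 1.57. There the ranges of all neighbours from TGFBR2 down to SKIL overlapped, as did those of SMAD4 and SMAD6 and of SMAD6 and TGFBR1. The low FPKM of SMAD2 goes in part with the length it was divided by: its merged exons span 36366 bases in GENCODE release 29, against 9113 for SMAD3. In reads SMAD2 was lower as well, with 1977 to 2324 per 769-P siControl library against 15553 to 20025 for SMAD3.

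**Figure D1:**
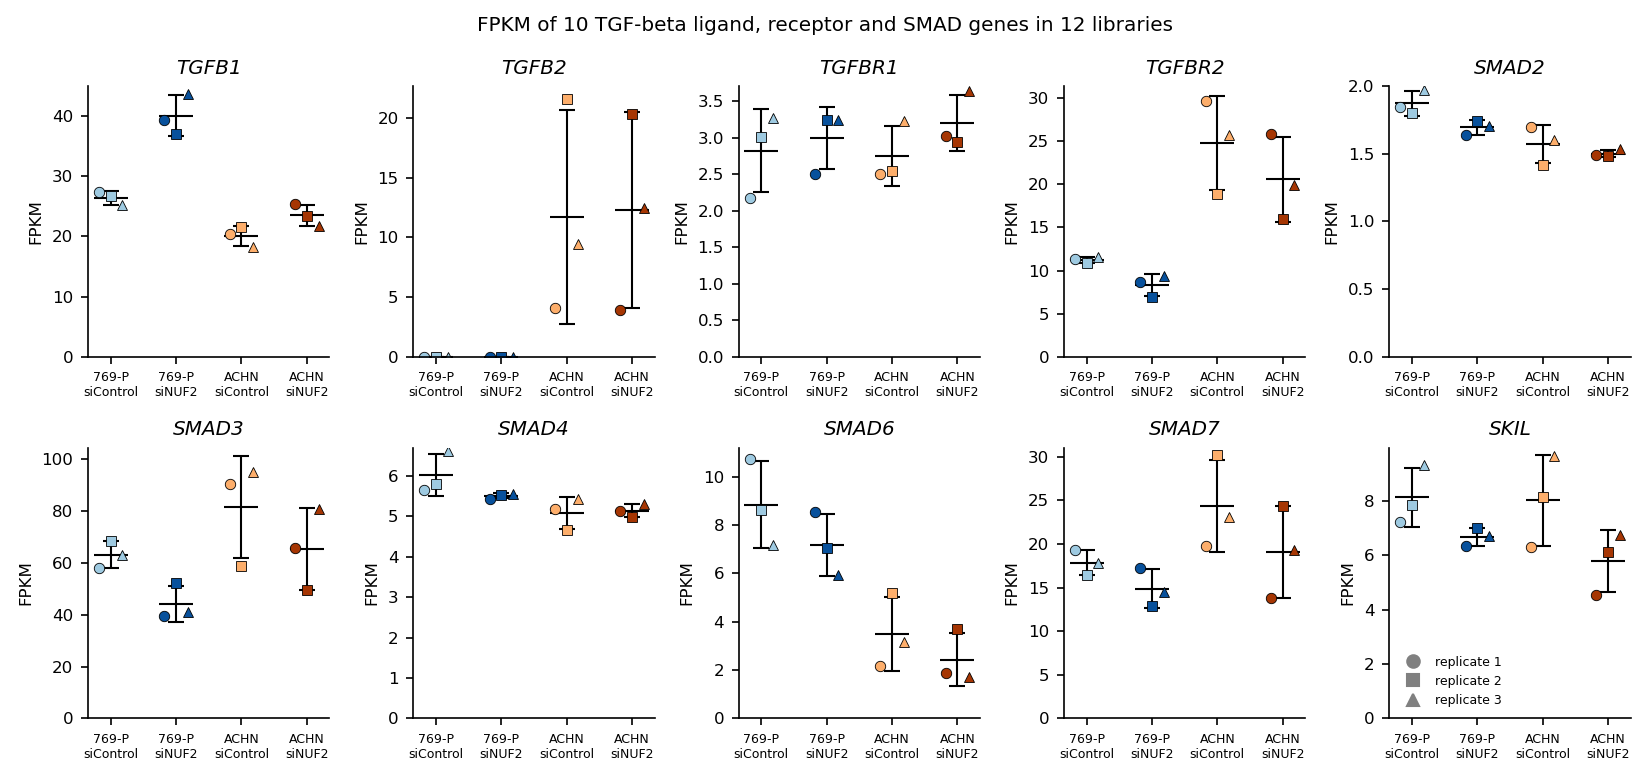
FPKM of each gene (linear axes from 0, each with its own scale) in the 4 groups, with 1 marker per library shaped by replicate number and a bar at the mean ± SD (n = 3). TGFB1 is the gene whose siNUF2 libraries lie above the siControl libraries in both lines, TGFB2 is near 0 in 769-P, and in ACHN the same replicate numbers are high or low in both groups for TGFB2, TGFBR2, SMAD3 and SMAD7.

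The line comparison asked how far 769-P and ACHN differed at baseline, in the 6 siControl libraries. TGFB1 and SMAD6 were higher in 769-P, TGFB2 and TGFBR2 were higher in ACHN, and the other 6 genes were not called. An adjusted p under 0.05 in limma (log2(FPKM + 0.1), Benjamini-Hochberg over all genes with an FPKM of at least 0.5 in at least 3 libraries) called 61.4% of 15376 genes here, so 4 of 10 is no more than the background share. The ranges of the lines did not overlap for 7 of the 10 genes, against 68.3% of all genes tested.

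TGFB2 (ENSG00000092969, forward strand of chromosome 1, 218346235 to 218444619 on GRCh38) encodes a ligand that needs betaglycan (TGFBR3) for high-affinity binding to TGFBR2. Its ACHN siControl libraries held 4.09, 21.6 and 9.44 FPKM and its 769-P siControl libraries 0.0198, 0.00605 and 0. In reads these were 6657 in ACHN and 4 in 769-P over 3 libraries each, a ratio per recovered read of 1489 with an exact 95% interval of 581 to 5468 that covers counting error only. At 0 to 3 reads per library, 769-P gave no level of TGFB2 that could be compared between siRNAs. TGFB2 passed the filter of 0.5 FPKM only through its ACHN libraries, so the filter itself picked it by a high level in 1 line. TGFB1 (ENSG00000105329, reverse strand of chromosome 19, 41301587 to 41353911) encodes the most widely expressed ligand of the family. It stood at 27.4, 26.7 and 25.2 FPKM in 769-P siControl and at 20.4, 21.6 and 18.2 in ACHN siControl, without overlap, and the log2 difference was 0.41 (SE 0.10, adjusted p = 0.0096).

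TGFBR2 (ENSG00000163513, forward strand of chromosome 3, 30606502 to 30694142), the type II receptor, had 29.7, 18.9 and 25.8 FPKM in ACHN siControl and 11.3, 10.8 and 11.5 in 769-P siControl. The lowest ACHN library lay above the highest of 769-P, and the log2 difference of 769-P against ACHN was -1.10 (SE 0.17, adjusted p = 0.0014). TGFBR1 (ENSG00000106799, forward strand of chromosome 9, 99104038 to 99154192), the type I receptor, overlapped between the lines, with 2.18 to 3.27 FPKM in 769-P and 2.50 to 3.23 in ACHN, and its log2 difference of 0.03 had an interval of -0.42 to 0.49. Within a library TGFBR2 was 4.11 ± 0.95 times TGFBR1 in FPKM in 769-P siControl and 9.10 ± 2.42 times in ACHN siControl (SD, n = 3).

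The estimates of the inhibitory SMADs lay in opposite directions, and only that of SMAD6 was called. SMAD6 (ENSG00000137834, forward strand of chromosome 15, 66702228 to 66782848), which mainly restrains the signal of bone morphogenetic proteins, had 10.7, 8.60 and 7.15 FPKM in 769-P siControl against 2.16, 5.17 and 3.14 in ACHN siControl. All libraries of 769-P were higher, by 1.39 on the log2 scale (SE 0.32, adjusted p = 0.0078). SMAD7 (ENSG00000101665, reverse strand of chromosome 18, 48919853 to 48952052), which binds the type I receptor and brings ubiquitin ligases to it, had 19.3, 16.4 and 17.8 FPKM in 769-P and 19.8, 30.2 and 23.1 in ACHN. Here the ACHN libraries were the higher ones, but the log2 difference of -0.42 did not pass (SE 0.16, adjusted p = 0.062), and it passed without ACHN siControl replicate 1 (adjusted p = 0.019). SMAD7 was 2.06 ± 0.37 times SMAD6 in 769-P siControl libraries and 7.45 ± 1.66 times in ACHN siControl libraries (SD, n = 3).

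SMAD2 (ENSG00000175387, reverse strand of chromosome 18, 47808957 to 47931146), SMAD4 (ENSG00000141646, forward strand of chromosome 18, 51028394 to 51085045) and SKIL (ENSG00000136603, forward strand of chromosome 3, 170357678 to 170396835) were not called between the lines, with log2 differences of 0.25, 0.25 and 0.04. SMAD3 (ENSG00000166949, forward strand of chromosome 15, 67063763 to 67195195) was not called either (-0.33, SE 0.19, adjusted p = 0.18), and 1 ACHN library decided this, since without ACHN siControl replicate 2, at 58.9 FPKM, the difference was -0.55 (adjusted p = 0.0053). That library was also the highest of its group for TGFB2, SMAD6 and SMAD7.

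Of 75 further pathway genes in 7 lists, 57 could be tested between the lines, of which 20 were higher in 769-P and 23 in ACHN, where 61.4% of all genes were called. Both ends held listed SMAD targets. ID1, a target of the SMAD1 and SMAD5 branch, had 131 ± 43.1 FPKM in 769-P siControl and 5.12 ± 1.86 in ACHN siControl (log2 difference 4.68, adjusted p = 4.2e-05). BAMBI, a decoy receptor, had 4.56 ± 0.64 and 0.341 ± 0.126 (3.44, adjusted p = 4.7e-05), and LTBP1, which anchors latent ligand in the matrix, 2.77 ± 0.18 and 0.0232 ± 0.0177 (4.55, adjusted p = 7.0e-06; SD, n = 3). The genes named at the other end, FN1, CTGF and LTBP2, are listed targets of the SMAD2 and SMAD3 branch. FN1, which encodes fibronectin, had 2.09 ± 0.51 FPKM in 769-P siControl and 149 ± 138 in ACHN siControl (log2 difference -5.65, adjusted p = 0.00045). CTGF, a matrix-associated growth factor, had 0.741 ± 0.415 and 47.1 ± 35.0 (-5.62, adjusted p = 0.00032), and LTBP2 0.415 ± 0.043 and 22.0 ± 7.26 (-5.37, adjusted p = 6.8e-06). LTBP1 and BAMBI in ACHN and LTBP2 in 769-P had means under 0.5 FPKM. These genes passed the filter through the other line. Of the 16 tested genes in the list of SMAD2 and SMAD3 targets, 4 were higher in 769-P and 9 in ACHN (again beside 61.4% of all genes), with a median log2 difference of -0.94 against 0.0098 for all genes tested. COL1A1 (-3.29) and TAGLN (-2.23) of this list did not meet the filter among 769-P libraries alone. Like LTBP2 they entered through ACHN, where they were high, so the counts and the median depend in part on the filter. SNAI1, JUNB, KLF10 and BHLHE40 of this list lay higher in 769-P without overlap, by 1.38, 1.23, 0.73 and 0.55 on the log2 scale. SNAI1 did not meet the filter among ACHN libraries alone. It passed through 769-P, where it was high, so its separation is no separate support. ID2 of the SMAD1 and SMAD5 branch had a difference of 0.18 and overlapped.

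Knockdown of NUF2 in 769-P was compared with siControl to ask which genes of the pathway changed. TGFB1 rose and SMAD3 fell, and the other 7 genes that could be tested did not pass in limma on FPKM without the replicate block. With the block, TGFBR2, SMAD6 and SMAD7 were also called lower. Without the block 9.93% of 14158 genes were called, and with it 27.7%, of which those called lower made up 13.8% of all genes. The counts among the 9 genes tested were 2 without the block and 5 with it, of which 4 were lower. The 9 genes had a median log2 fold change of -0.26, against -0.01 for all genes tested.

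TGFB1 had 39.4, 37.1 and 43.7 FPKM in 769-P siNUF2 libraries against 27.4, 26.7 and 25.2 in siControl libraries. Every siNUF2 library lay above every siControl library. The log2 fold change was 0.61 (SE 0.08, adjusted p = 0.010, and 0.0083 with the block), a fold of 1.53, and it passed in each fit that left out 1 library, at 0.55 to 0.67. SMAD3, which as full-length protein binds DNA where full-length SMAD2 does not, had 39.5, 52.1 and 41.0 FPKM in siNUF2 and 57.9, 68.5 and 63.0 in siControl, again without overlap. It fell by 0.51 on the log2 scale (SE 0.12, adjusted p = 0.040, and 0.0073 with the block). This call was lost without siNUF2 replicate 1 (adjusted p = 0.099), siNUF2 replicate 3 (0.13), siControl replicate 2 (0.12) or siControl replicate 3 (0.11).

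TGFBR2 had 8.66, 6.91 and 9.42 FPKM in 769-P siNUF2 and 11.3, 10.8 and 11.5 in siControl, so that the groups did not overlap. Its log2 fold change was -0.43 (SE 0.12), with an adjusted p of 0.067 without the block and 0.020 with it in limma, and it passed without the block in limma-voom on recovered reads (adjusted p = 0.044). TGFBR1 had 2.51, 3.25 and 3.25 FPKM in siNUF2 and 2.18, 3.02 and 3.27 in siControl, with a log2 fold change of 0.11 and an interval of -0.30 to 0.51. In FPKM, TGFBR2 was 2.83 ± 0.67 times TGFBR1 in siNUF2 libraries, where siControl had 4.11 ± 0.95 times (SD, n = 3).

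The feedback inhibitors lay below siControl in every same-numbered pair. SMAD6 had 8.53, 7.04 and 5.94 FPKM in 769-P siNUF2 and 10.7, 8.60 and 7.15 in siControl, so the groups overlapped although the pairs differed by -0.32, -0.27 and -0.25 on the log2 scale. Its adjusted p was 0.37 without the block and 0.018 with it. SMAD7 had 17.3, 12.9 and 14.4 against 19.3, 16.4 and 17.8 FPKM, with a log2 fold change of -0.26 (adjusted p = 0.23, and 0.027 with the block in limma). SKIL, a corepressor that binds SMADs on DNA and is degraded when the pathway is switched on, had 6.33, 6.99 and 6.71 against 7.24, 7.83 and 9.32 FPKM. Its groups did not overlap, yet the log2 fold change of -0.26 passed in neither fit on FPKM (adjusted p = 0.16, and 0.062 with the block), though it did in limma-voom with the block (adjusted p = 0.012).

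SMAD2 and SMAD4 stood near their control levels in 769-P. SMAD2 had 1.64, 1.74 and 1.71 FPKM in siNUF2 against 1.85, 1.80 and 1.97 in siControl, a log2 fold change of -0.12 with an interval of -0.37 to 0.12. SMAD4, the shared partner of the other SMADs, had 5.44, 5.53 and 5.56 against 5.67, 5.80 and 6.61, with -0.11 and an interval of -0.31 to 0.08. Their ranges were separate all the same, which brings the genes without overlap to 6 of 9 (TGFB1, TGFBR2, SMAD2, SMAD3, SMAD4 and SKIL), against 33.1% of all genes tested. An exact two-sided permutation test of 3 against 3 libraries cannot go below p = 0.1, which these 6 genes reached. In all 9 genes the 3 same-numbered pairs had 1 direction, as had 63.1% of all genes.

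In ACHN the same comparison called none of the 10 genes without the block, and with it SKIL, SMAD7, TGFBR2 and SMAD3 were called lower. Without the block limma called 0% of 15111 genes (0 genes, with 1233 at an unadjusted p under 0.05, and 0 in limma-voom on recovered reads), NUF2 included, and none of the 10 had an unadjusted p under 0.05. With the block 11.6% of genes were called, those called lower being 4.88% of all genes, and 4 of the 10 were among them. SMAD3, SMAD7 and TGFBR2 were called lower with the block in 769-P as well. How many of all genes were called in both lines was not counted, so this overlap is given as a description.

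SKIL had 4.53, 6.13 and 6.74 FPKM in ACHN siNUF2 and 6.30, 8.13 and 9.65 in siControl. The groups overlapped, but the pairs differed by -0.46, -0.39 and -0.49 on the log2 scale. The log2 fold change was -0.45, with an adjusted p of 0.68 without the block and 0.018 with it. SMAD7 had 13.8, 24.3 and 19.3 against 19.8, 30.2 and 23.1 FPKM, lower in each pair, with a log2 fold change of -0.35 (adjusted p = 0.84, and 0.039 with the block in limma). SMAD6 had 1.89, 3.70 and 1.70 against 2.16, 5.17 and 3.14 FPKM and passed in neither fit on FPKM (-0.49, adjusted p = 0.88, and 0.079 with the block), though it did in limma-voom with the block (adjusted p = 0.0075).

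TGFBR2 had 25.8, 16.004 and 19.98 FPKM in ACHN siNUF2 and 29.7, 18.9 and 25.8 in siControl. Replicate 1 was the highest and replicate 2 the lowest in both groups, and each pair was lower in siNUF2. The log2 fold change was -0.26 (adjusted p = 0.92, and 0.041 with the block in limma). SMAD3 had 65.7, 49.6 and 81.0 against 90.6, 58.9 and 95.3 FPKM, with a log2 fold change of -0.30 (adjusted p = 0.90, and 0.043 with the block). TGFBR1 had 3.02, 2.94 and 3.64 against 2.50, 2.54 and 3.23 FPKM, a log2 fold change of 0.22 that did not pass with the block either (adjusted p = 0.089).

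TGFB1 had 25.3, 23.4 and 21.8 FPKM in ACHN siNUF2 and 20.4, 21.6 and 18.2 in siControl. It was the 1 gene of the 10 whose groups did not overlap, against 14.4% of all genes tested, and its log2 fold change was 0.24 (adjusted p = 0.65, and 0.053 with the block in limma, and 0.016 with the block in limma-voom). TGFB2 had 3.95, 20.4 and 12.4 FPKM against 4.09, 21.6 and 9.44, so that replicate 1 was the lowest and replicate 2 the highest in both groups, about 5 times apart. The pairs differed by -0.05, -0.07 and 0.41 on the log2 scale, with no common direction. SMAD2 had 1.49, 1.48 and 1.53 FPKM against 1.70, 1.42 and 1.60, and SMAD4 5.13, 4.98 and 5.30 against 5.18, 4.65 and 5.42, both with pairs of mixed sign. The other 7 genes had 1 direction in all 3 pairs, as had 54.7% of all genes.

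**Figure D2:**
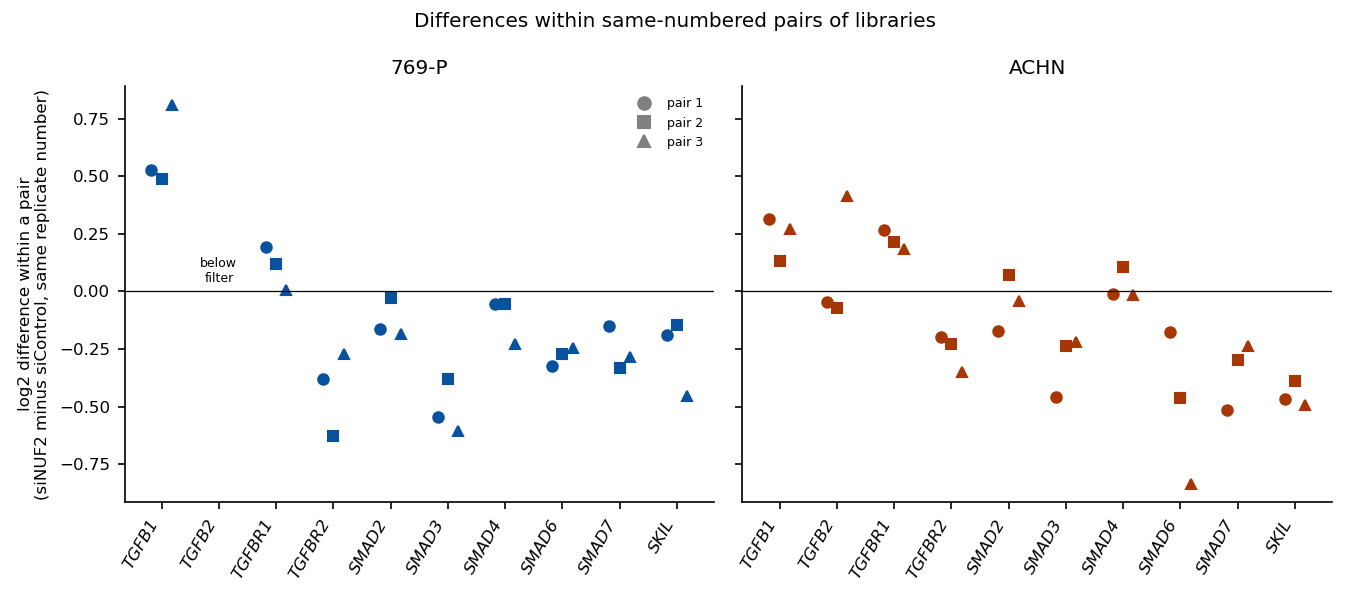
Log2 difference of FPKM + 0.1 between siNUF2 and siControl libraries of the same replicate number for each gene, on 1 shared vertical axis, with 1 marker per pair (3 pairs per line). In 769-P all pairs of TGFB1 and TGFBR1 lie above 0 and all pairs of the other 7 genes plotted lie under it, and in ACHN the pairs of TGFB2, SMAD2 and SMAD4 lie on both sides of 0.

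**Figure D3:**
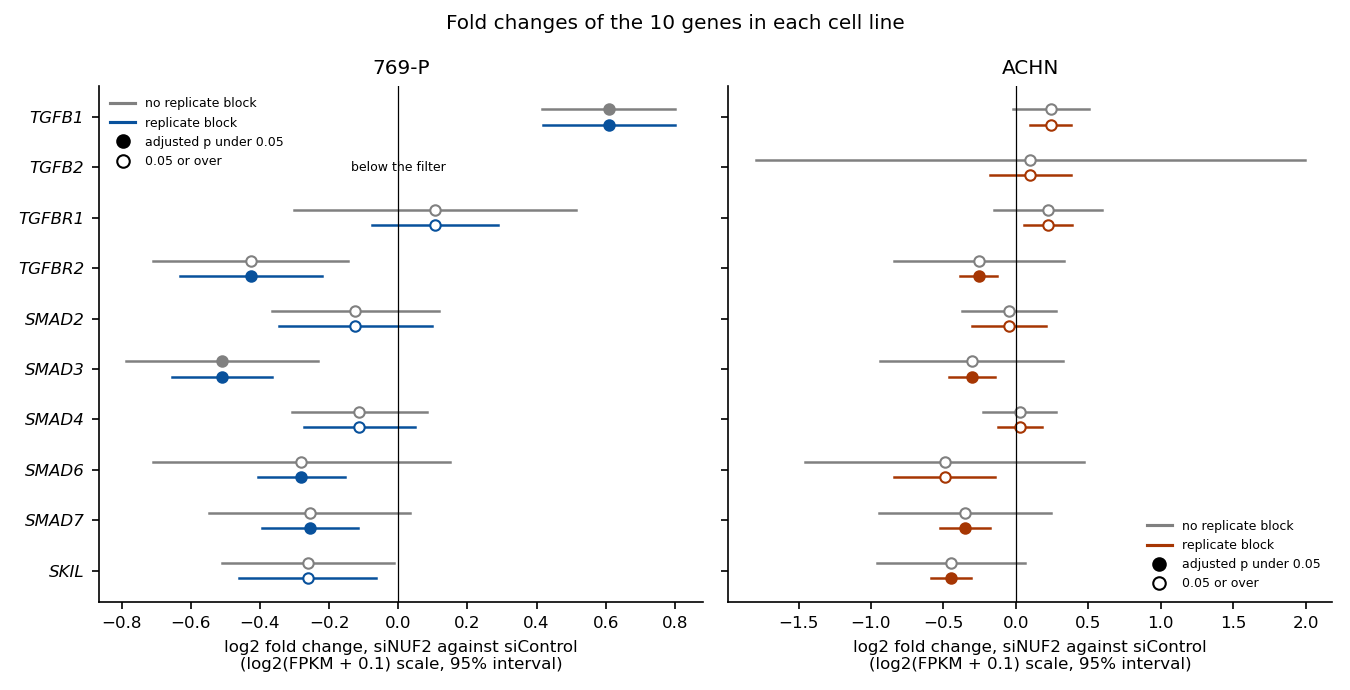
Log2 fold change of siNUF2 against siControl with its 95% interval in limma, in 769-P and in ACHN (the horizontal axes differ), in grey without and in colour with the replicate block. Filled points have an adjusted p under 0.05, and the block leaves the estimates in place and narrows most intervals, most of all for TGFB2 and SMAD6 in ACHN.

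Whether the lines responded differently was tested as the interaction of line and siRNA over all 12 libraries. None of the 10 genes passed, in either fit. Without the block limma called 0% of 16580 genes (774 at an unadjusted p under 0.05, and 0 in limma-voom), and with the block 1.33%. The gene nearest to a difference was TGFB1, whose log2 fold change was larger in 769-P by 0.37, with an interval of 0.08 to 0.66 (unadjusted p = 0.016, adjusted p = 1.0, and 0.11 with the block), and it passed in limma-voom with the block (adjusted p = 0.035). For SMAD3 the difference was -0.20 with an interval of -0.87 to 0.46, for SMAD7 0.10 with -0.56 to 0.75, and for SKIL 0.19 with -0.37 to 0.74.

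Deviations of the genes were also compared over the 12 libraries after the mean of each line was subtracted. SMAD6 and SMAD7 had the highest Pearson r of the 36 pairs (0.83), followed by SMAD2 with SMAD4 (0.80) and SMAD2 with SMAD3 (0.79), and TGFB1 and SMAD3 had the lowest (-0.77). These libraries share the 2 siRNA groups and the replicate numbers, and the values are given as a description. Without the block TGFB1 had the lowest unadjusted p of the 10 genes in 769-P and in ACHN (with it, SMAD3 and SKIL had), and among 12932 genes SIL1 (r = 0.98), AMZ2 (0.98) and CARD10 (0.97) followed it most closely over the 12 libraries.

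Few ligands and receptors of the wider family were called under siNUF2, which does not show that the others were unchanged. In 769-P, 56 of the 75 pathway genes could be tested, of which 4 rose and 2 fell without the block, and 10 were higher and 10 lower with it, where 27.7% of all genes were called. The 6 genes called without the block are to be read against the 9.93% of all genes called, and none of them was among the 5 tested ligands or 9 tested receptors. With the block INHBA, the activin A subunit, was higher by 0.76 on the log2 scale (adjusted p = 0.0055), ACVR1B, a type I activin receptor, was lower by 0.49 (log2 fold change -0.49, adjusted p = 0.0072), and BMPR1A was higher by 0.36 (adjusted p = 0.015). In ACHN, 0 of 54 genes passed without the block (5 at an unadjusted p under 0.05 in limma), and 6 were higher and 5 lower with it, where 11.6% of all genes were called. There BMPR1A was higher by 0.29 (adjusted p = 0.044), and BMPR2, the type II receptor for bone morphogenetic proteins, had a log2 fold change of -0.49 (adjusted p = 0.029).

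SMAD5, which carries the signal of bone morphogenetic proteins, fell in 769-P. It had 9.85, 10.5 and 8.73 FPKM in siNUF2 and 14.1, 14.2 and 15.5 in siControl, a log2 fold change of -0.58 (SE 0.09, adjusted p = 0.014, and 0.051 and 0.053 without siControl replicate 2 or 3). In ACHN it had 6.42, 6.54 and 5.83 against 7.65, 7.50 and 7.21 FPKM, also without overlap, with -0.24 (adjusted p = 0.58, and 0.052 with the block). With the block SMAD9 (-0.60, adjusted p = 0.046), the SMAD anchor ZFYVE9 (-0.24, adjusted p = 0.048) and the coactivator EP300 (-0.19, adjusted p = 0.044) were lower in 769-P as well.

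Among other negative regulators SKI, a paralogue of SKIL, rose in 769-P. SKI had 6.05, 5.24 and 5.87 FPKM in 769-P siNUF2 and 4.57, 4.05 and 4.07 in siControl, a log2 fold change of 0.44 (adjusted p = 0.035). In ACHN it had 9.98, 9.74 and 8.67 against 7.14, 8.04 and 6.84 FPKM, without overlap, and 0.37 (adjusted p = 0.029 with the block). BAMBI fell in 769-P, with 3.22, 2.66 and 2.80 against 4.61, 3.89 and 5.16 FPKM (log2 fold change -0.62, adjusted p = 0.032), and TGIF1, a SMAD corepressor, was lower there with the block (-0.32, adjusted p = 0.042). Both calls without the block were lost with single libraries left out: that of SKI without any of the 3 siNUF2 libraries or siControl replicate 2 or 3 (adjusted p up to 0.12), and that of BAMBI without siNUF2 replicate 2 or 3 or siControl replicate 1 or 3 (adjusted p up to 0.10). With all 12 libraries in 1 fit BAMBI had an adjusted p of 0.17.

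THBS1 encodes thrombospondin 1, which can release TGF-beta from its latent complex, and in 769-P it had the largest rise of the 8 tested genes in the latency and activation list. It had 39.6, 28.7 and 37.9 FPKM in 769-P siNUF2 against 14.2, 9.996 and 9.79 in siControl (log2 fold change 1.66, SE 0.18, adjusted p = 0.0056). In ACHN it had 184, 474 and 331 against 117, 356 and 237 FPKM, higher in each pair (0.53, adjusted p = 0.015 with the block). ITGAV, the integrin subunit whose complexes free the ligand, was lower with the block in 769-P (-0.30, adjusted p = 0.030) and in ACHN (-0.31, adjusted p = 0.020). Also with the block, LTBP1 was higher in 769-P (0.36, adjusted p = 0.026), FURIN, the protease that cleaves the ligand precursor, was lower there (-0.24, adjusted p = 0.029), and LTBP4 was lower in ACHN (-0.22, adjusted p = 0.048).

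Of the 14 tested SMAD2 and SMAD3 targets in 769-P, 2 rose, TPM1 among them, and 12 did not pass without the block, and 5 were higher and none lower with it. Of all 14158 genes, 9.93% and 27.7% were called in either direction, and 756 and 1960 were called higher. Whether 2 and 5 of 14 targets exceed these shares was not tested. Their median log2 fold change was 0.30, against -0.01 for all genes tested. TPM1, a tropomyosin, had 68.6, 58.8 and 69.2 FPKM in siNUF2 against 54.1, 43.5 and 45.0 in siControl (log2 fold change 0.48, SE 0.11, adjusted p = 0.040). Its call was lost without any of the 3 siNUF2 libraries or siControl replicate 2 or 3 (adjusted p up to 0.13). CTGF (1.40, adjusted p = 0.0081) and FN1 (0.64, adjusted p = 0.022) were higher with the block. The groups of FN1 overlapped, and CTGF was near the filter of 0.5 FPKM in 769-P siControl. In ACHN the median over 16 tested targets was -0.04, and with the block 3 were higher and 2 lower, beside 11.6% of all genes called.

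The targets called in ACHN were not of 1 direction. CTGF had 29.5, 123 and 62.0 FPKM in siNUF2 against 16.5, 85.2 and 39.7 in siControl (0.68, adjusted p = 0.014 with the block), COL4A1, a basement membrane collagen, was higher by 0.65 (adjusted p = 0.014) and TAGLN by 0.44 (adjusted p = 0.028). CDKN1A, which encodes the cell cycle inhibitor p21, had 141, 100 and 59.6 against 281, 141 and 112 FPKM, a log2 fold change of -0.79 (adjusted p = 0.020 with the block). Of the SMAD1 and SMAD5 targets, ID2 was lower in 769-P with the block (-0.55, adjusted p = 0.038), and none of 4 passed in ACHN in either fit (limma).

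**Figure D4:**
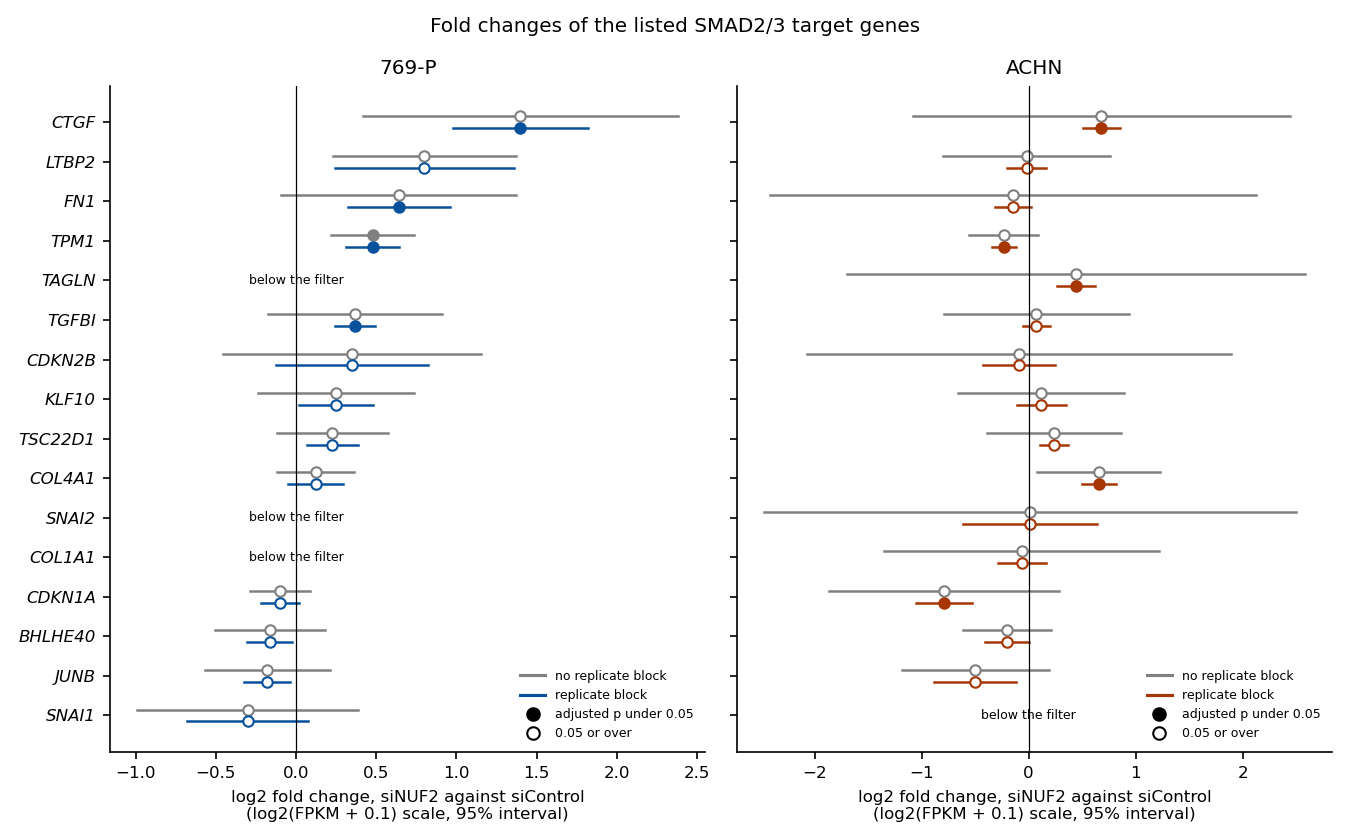
Log2 fold change with its 95% interval in limma for the listed SMAD2 and SMAD3 targets that could be tested in at least 1 line and are reported here (the horizontal axes differ), drawn as for the 10 genes. CTGF, FN1, TPM1 and TGFBI have filled points to the right of 0 in 769-P, and CTGF, COL4A1 and TAGLN to the right and CDKN1A and TPM1 to the left in ACHN.

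The 250 bases before each RefSeq start (GRCh38.p14) were searched on both strands for 3 motifs, the 8-base palindrome GTCTAGAC, the SMAD-binding element first selected in vitro, the 5-base SMAD box CAGAC, and the AP-1 site TGACTCA. The palindrome does not contain the box. Over 35116 such windows of all genes, 0.182% held the palindrome, 38.0% the box and 4.20% the AP-1 site. The 10 genes had 25 windows, of which 10 held a box (in SKIL, SMAD3, SMAD7, TGFB2 and TGFBR1, whose windows partly overlap), 1 the palindrome and 1 the AP-1 site. The sites of SMAD3, SMAD6, SMAD7 and SKIL are shown, since these genes and TGFBR2, whose 2 windows held no motif, were called lower with the block in one line or both. They are printed with the motif in capitals, 5′ to 3′ on the strand of the gene, where a box on the other strand reads GTCTG. The palindrome of SMAD6 (chr15:66702213-66702235, forward strand) starts 12 bases before the RefSeq start. SMAD7 has boxes at 217 and 128 bases before 1 start (chr18:48951166-48951194 and chr18:48951077-48951105, reverse strand) and at 193 bases before another (chr18:48949510-48949538), and SKIL has 1 at 107 bases (chr3:170357596-170357624, forward strand).
SMAD6 palindrome: gccgccaaagtGTCTAGACtggc
SMAD7 box at 217 bases: gccggacgccccCAGACctctgaggttcg
SMAD7 box at 128 bases: ttcttattttgcCAGACgtctcatgcggg
SMAD7 box at 193 bases: actgctcctgcaGTCTGcggttaaaaatt
SKIL box at 107 bases: gacggcggcggcGTCTGcgggaagctgtg
SMAD3 has 5 starts on the forward strand, with a box 133 bases before 1 of them (chr15:67137876-67137904), boxes 172, 135 and 85 bases before another (chr15:67166347-67166375, chr15:67166384-67166412 and chr15:67166434-67166462), and the AP-1 site, read on the other strand, 56 bases before a different one (chr15:67125675-67125703).
SMAD3 box at 133 bases: tggatttcttctGTCTGggtgttgccagg
SMAD3 box at 172 bases: taataacacctgGTCTGcacagaagaaga
SMAD3 box at 135 bases: accaaagggtggGTCTGagcctgcagatc
SMAD3 box at 85 bases: aggcggaggcaaGTCTGgacgcctccctg
SMAD3 AP-1 site: actgactcctcTGAGTCAtgcccagggga
The windows of TGFB1, TGFBR2, SMAD2 and SMAD4 held none of the 3 motifs. A match is a run of letters and not a measured binding site.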

How the data were processed

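The libraries were sequenced on the Illumina platform, and the values the authors deposited are FPKM per gene and library. Reads had been filtered with fastp, and the submitters' processing notes name HISAT2 2.0.5, featureCounts 1.5.0-p3 and hg38. The strand setting and annotation release are not given in the sources used here, so sense and antisense reads may not have been separated. FPKM depend on the merged exon length of a gene.

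The 10 genes and the 7 lists were chosen with earlier results of these data known. The genes named are all 10, NUF2, up to 4 called genes per list and line by fold change, and the 3 highest and 3 lowest between the lines. SMAD5 and TPM1 in ACHN and TGFBI in 769-P were added after their values were seen. So were SNAI1, JUNB, KLF10, BHLHE40, ID2, COL1A1 and TAGLN between the lines. 1 gene of the SMAD2 and SMAD3 target list counts in its totals but is not reported here.

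FPKM were scaled by a trimmed mean of log ratios (30% and 5% trimmed), and log2(FPKM + 0.1) of genes with at least 0.5 in at least 3 libraries was fitted with limma 3.58.1 (lmFit, eBayes with trend) in R 4.3.3, each line alone. A pseudocount understates the change of low genes. Adjusted p are by Benjamini and Hochberg. The labels do not say whether replicates are separate cultures, so p-values measure the spread between these libraries, which may be technical. Same-numbered libraries were checked for pairing by the correlation of their deviations from the group means, with r of 0.19 to 0.36 (769-P) and of 0.46 to 0.74 (ACHN), and each library correlated best with its own number. Between the lines it was -0.05 to 0.04. Reads were recovered for 35044 of 36305 genes above 0, by exon lengths of GENCODE release 29. Under 50 reads, at least 96.7% of values in each library were whole within a tolerance of 0.02. For the 35044 genes the tolerance widened with the number of reads, so high values passed whatever their fraction. SMAD7 was such a gene, at 2730.53 reads in 769-P siNUF2 replicate 1, and limma-voom used its rounded values. At this depth precision is set by the spread between replicates, and by counting error for TGFB2 in 769-P. The chi-square per gene between replicates was at least 14.5, so no library was a copy. The fits without the block were run on simulated data with independent noise in each library. The simulation covered neither the pairing of replicate numbers nor the block.

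Promoter windows are from RefSeq, and all 10 genes matched by symbol. Tables were made in Python 3.11.15 with pandas 2.3.3, NumPy 2.4.6 and SciPy 1.17.1, and figures in matplotlib 3.10.9. Alternatives were no further scaling, median-ratio scaling, pseudocounts of 1 and 0.01, no filter, all 12 libraries in 1 fit, the replicate block, a minimum FPKM of 1 in every library, and leaving out each library. limma-voom on recovered reads was added after the data had been seen.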

Additional observations from a re-analysis of the deposited data

Results flagged for a closer look

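In the fit with the replicate block, the interaction of line and siRNA called 2 of 61 tested genes of the pathway lists. That fit called 1.33% of 16580 genes, and without the block 0% were called. THBS1 rose more in 769-P than in ACHN, by 1.13 on the log2 scale (adjusted p = 0.033 in limma with the block, and 1.0 without it). TPM1 rose in 769-P and was lower with the block in ACHN (log2 fold change -0.23), a difference of 0.71 (adjusted p = 0.032 in limma with the block, and 0.91 without it). None of the 10 ligand, receptor and SMAD genes differed between the lines in either limma fit on FPKM.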

How the results depend on the processing

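In 769-P, the calls among the 10 genes numbered 2, and 1 to 2 with a library left out. They were 1 with no filter or with all 12 libraries in 1 fit, where SMAD3 was lost (adjusted p = 0.099 and 0.23), 3 in limma-voom, where TGFBR2 passed as well, 5 with the replicate block, and 6 with the block in limma-voom. Pathway genes called numbered 6 of 56, and 1 to 7 with a library left out, 2 of 73 with no filter, 20 of 56 with the block, 13 of 61 in limma-voom and 28 of 61 in limma-voom with the block. Of all genes in 769-P, 1406 of 14158 were called without the block, and 359 to 1134 with a library left out. The calls were 636 of 31645 with no filter, 705 of 16580 with all 12 libraries in 1 fit, and 3915 of 14158 with the block. In limma-voom they were 1830 of 15756, and 5308 of 15756 with the block. In ACHN the 0 calls among the 10 genes and the 0 among pathway genes held with each library left out. They became 4 of 10 and 11 of 54 with the block, and 6 of 10 and 22 of 63 with the block in limma-voom. Of all genes tested there, 0 were called without the block, 1750 of 15111 with it, and 3346 of 16912 with the block in limma-voom. The interaction called 0 of the 10 genes and 0 pathway genes, and 2 of 61 pathway genes with the block, and 1 of 10 and 13 of 66 with the block in limma-voom. Of all genes, it called 0 without the block, 221 of 16580 with it, and 1019 of 18131 with the block in limma-voom. Between the lines 3 to 4 genes of the 10 and 33 to 42 pathway genes were called with a library left out. Without an ACHN siControl library TGFB2 failed the filter, and only 9 of the 10 could be tested. Of all genes, 7245 to 8079 were called in those fits. With the block 2 of the 16 tested SMAD2 and SMAD3 targets were higher in 769-P and 10 in ACHN. Among these 16, COL1A1, TAGLN and LTBP2 met the filter through ACHN and SNAI1 through 769-P. That fit called 9106 of 15376 genes. TGFB1 in 769-P, and TGFB1, TGFBR2 and SMAD6 between the lines, passed in the same direction under all 16 alternatives. TGFB2 between the lines could be fitted in 12 of the 16 and passed in those. It met the filter only through the ACHN libraries, so these calls are no separate support. limma-voom was chosen after seeing the data. The cause of these changes was not tested. The block changed no call of the 10 genes between the lines, where it does not pair the libraries.

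Estimates of genes that did not pass changed sign when single libraries were left out. In 769-P, TGFBR1 ran from -0.054 to 0.22 on the log2 scale. In ACHN, TGFB2 ran from -0.49 to 0.76, SMAD2 from -0.12 to 0.011 and SMAD4 from -0.035 to 0.074. For the interaction, TGFB2 ran from -0.73 to 0.53, TGFBR1 from -0.28 to 0.0077, TGFBR2 from -0.34 to 0.015, SMAD3 from -0.39 to 0.016, SMAD6 from -0.11 to 0.55 and SMAD7 from -0.12 to 0.29. Between the lines, TGFBR1 ran from -0.059 to 0.23 and SKIL from -0.13 to 0.18. The interaction of TGFB2 (-0.07) was 0.15 with a pseudocount of 0.01, 0.53 in limma-voom and 0.29 in limma-voom with the block, and it rests on 769-P libraries with 0 to 3 reads.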
